A study of Mus musculus with 16 samples.

Results

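The endoplasmic reticulum (ER) folding machinery and the unfolded protein response were examined in mouse liver through 30 genes, of 19938 genes with a row of their own on the array. The genes were taken from a list of ER chaperones, protein disulfide isomerases, degradation factors, stress sensors and stress transcription factors, and each was represented by its brightest row among rows with a single gene symbol. All 30 were measured. Of these, 21 are induced mainly through ATF6 or the spliced form of XBP1 and are called ATF6/XBP1-type here, 6 belong to the ATF4 arm and are called ATF4-type, and 3 encode the stress sensors themselves. Total hepatic RNA of 7 Pdgf-c transgenic samples on the C57BL/6 background and of 9 wildtype C57BL/6 samples was hybridised to Affymetrix Mouse Gene 1.0 ST arrays, which report 1 value per transcript cluster, here called a row. The product of Pdgf-c is a growth factor that binds the PDGF receptors on fibroblasts and hepatic stellate cells. The labels name the cells stromal, whereas the extraction protocol describes RNA of the liver as a whole, and whole liver is how the samples are read here. The promoter that drives the transgene, the age of the mice and whether each sample came from its own animal are not given in the sources used here, so a p-value here measures no more than the spread between the samples.

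Secreted and membrane proteins fold in the ER with the help of lumenal chaperones, lectins and disulfide isomerases, and proteins that fail to fold are moved back to the cytosol and degraded. Hepatocytes, which secrete most plasma proteins, carry a large ER. When unfolded proteins accumulate, the sensor ATF6 is cleaved to a transcription factor, the sensor IRE1 (gene Ern1) splices Xbp1 mRNA so that it encodes an active factor, and the sensor PERK (gene Eif2ak3) phosphorylates eIF2, which slows translation in general while translation of ATF4 goes up. ATF6 and XBP1 induce chaperone and degradation genes through the ER stress response element (ERSE) and related motifs, and ATF4 induces Ddit3, Trib3, Asns, Chac1 and Ppp1r15a.

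These motifs were looked for in the promoters of the 27 members that matched the RefSeq promoter table (assembly GRCm38.p6), which gives 250 bases before to 50 bases after each gene's annotated start. The searches used both strands and the letters CCAAT, 9 unspecified bases and CCACG for ERSE, the letters ATTGG, any base and CCACG for ERSE-II, TGACGTGG for the core of the XBP1-bound element and TGATGNAA for the composite site bound by ATF4 with a C/EBP partner. ERSE matched 8 of 19 promoters of ATF6/XBP1-type members (42.1%), 0 of 6 ATF4-type promoters and 39 of all 32851 promoters (0.119%). Without its last base, the ERSE letters matched 11 of the 19 (57.9%), the further promoters being those of Pdia3, Pdia4 and Herpud1, against 0.365% of all promoters. ERSE-II matched 2 of the 19, Herpud1 and Dnajb11, against 0.0365% of all promoters. The ATF4 composite site matched 3 of 6 ATF4-type promoters, Chac1, Trib3 and Asns, and 1 of the 19, Herpud1, against 3.97% of all promoters. The XBP1 element core matched none of these members' promoters and 0.676% of all promoters. Apart from the ERSE matches that the shortened letters contain, matches of different motifs shared no bases in these promoters. A match describes the letters in this window and is not evidence of binding. The types are defined by the factors that use these motifs, so a larger share than in all promoters is no independent result. Atf6, Hyou1 and Manf were not matched in the table. The whole promoters of Herpud1 and Dnajb11, whose arrays separated the groups, and of Hspa5, the main ER chaperone, are shown 5′ to 3′ on the gene's strand, with matches to ERSE, ERSE-II or the ATF4 composite site in capitals.
Herpud1 (chr8:94386179-94386478, plus strand): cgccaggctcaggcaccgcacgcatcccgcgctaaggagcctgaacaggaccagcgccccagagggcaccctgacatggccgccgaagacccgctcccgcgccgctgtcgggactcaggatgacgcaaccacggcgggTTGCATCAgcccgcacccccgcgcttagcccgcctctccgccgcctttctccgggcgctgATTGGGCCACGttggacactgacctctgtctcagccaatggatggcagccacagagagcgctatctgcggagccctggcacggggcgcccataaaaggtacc
Dnajb11 (chr16:22857595-22857894, plus strand): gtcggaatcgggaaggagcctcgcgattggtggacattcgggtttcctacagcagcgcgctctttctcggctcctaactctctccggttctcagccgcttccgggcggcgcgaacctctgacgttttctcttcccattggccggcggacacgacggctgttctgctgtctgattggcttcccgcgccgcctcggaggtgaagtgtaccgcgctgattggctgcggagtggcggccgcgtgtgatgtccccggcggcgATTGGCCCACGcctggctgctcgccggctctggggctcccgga
Hspa5 (chr2:34771840-34772139, plus strand): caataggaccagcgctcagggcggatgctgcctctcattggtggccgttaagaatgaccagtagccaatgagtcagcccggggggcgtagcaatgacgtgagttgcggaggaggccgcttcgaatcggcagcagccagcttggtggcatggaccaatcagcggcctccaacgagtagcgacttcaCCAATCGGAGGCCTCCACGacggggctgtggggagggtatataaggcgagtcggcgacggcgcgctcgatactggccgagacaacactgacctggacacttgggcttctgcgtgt

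The remaining ERSE matches are shown with 12 bases on each side to show the bases within and around the match in each gene. Capitals mark the match, which reads in either orientation, and its spacing was set by the search.
Calr (chr8:84847063-84847105, minus strand): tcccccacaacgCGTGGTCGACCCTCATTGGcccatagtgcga
Hsp90b1 (chr10:86705626-86705668, minus strand): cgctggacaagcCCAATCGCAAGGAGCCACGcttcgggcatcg
Hsp90b1 (chr10:86705521-86705563, minus strand): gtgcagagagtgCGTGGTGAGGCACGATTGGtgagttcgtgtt
Canx (chr11:50325788-50325830, minus strand): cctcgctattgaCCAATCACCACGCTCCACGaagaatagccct
Pdia6 (chr12:17266479-17266521, plus strand): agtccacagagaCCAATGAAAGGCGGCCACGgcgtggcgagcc
Dnajc3 (chr14:118937815-118937857, plus strand): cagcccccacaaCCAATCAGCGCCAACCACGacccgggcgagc
Creld2 (chr15:88819508-88819550, plus strand): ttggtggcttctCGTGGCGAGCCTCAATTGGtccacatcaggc
Syvn1 (chr19:6046520-6046562, plus strand): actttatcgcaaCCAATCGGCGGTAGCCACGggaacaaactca

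The first base of the match lay 65 bases before the start of Hspa5, 44 before that of Syvn1, 98 before Pdia6, 105 before Dnajc3, 126 before Creld2, 145 before Canx and 162 before Calr. Hsp90b1 held 2 matches, 212 and 107 bases before its start. The ERSE-II match of Herpud1 began 52 bases before the start and that of Dnajb11 at base 8 after it.

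The ATF4 composite sites of the ATF4-type members are shown in the same way, with the match in capitals.
Chac1 (chr2:119351037-119351068, plus strand): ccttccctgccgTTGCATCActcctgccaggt
Trib3 (chr2:152344027-152344058, minus strand): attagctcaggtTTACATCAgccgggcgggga
Asns (chr6:7693213-7693244, minus strand): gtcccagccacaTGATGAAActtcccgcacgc

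The array medians ran from 5.20 to 5.36 in log2 units over 35557 rows. This range is wider than the smallest called difference of a member, −0.09 for P4hb, and calls with each array centred on its median are given below. Pdgfc, read as a check of the labels, averaged 6.45 in transgenic arrays and 6.01 in wildtype arrays, a log2 difference of 0.44 ± 0.0873 (SE, n = 7 against 9; limma adjusted p = 0.00132). The groups overlapped in Pdgfc, with 6 of 7 transgenic arrays above all wildtype arrays, so it does not check the label of each array. Precision is limited by the number of arrays.

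Of the 30 members, 12 were lower in transgenic livers and 0 were higher at an adjusted p of 0.05 (limma, Benjamini-Hochberg over all rows). At an unadjusted p of 0.05, 17 were lower and 0 higher. Over all 19938 genes, 11.1% were called lower and 12.1% higher, 23.2% together. The 12 were the chaperone genes Calr, Hyou1, Dnajb9, Dnajb11 and Sdf2l1, the isomerase genes Pdia6 and P4hb, the degradation genes Herpud1, Edem1, Sel1l and Syvn1, and Ppp1r15a of the ATF4 arm. Their differences, transgenic minus wildtype on the log2 scale, ran from −0.49 to −0.09, that is, 6.18% to 29.0% lower. The fitted difference was below 0 for 25 of the 30 members, and the median over the members was −0.12, against −0.04 over all genes.

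**Figure D1:**
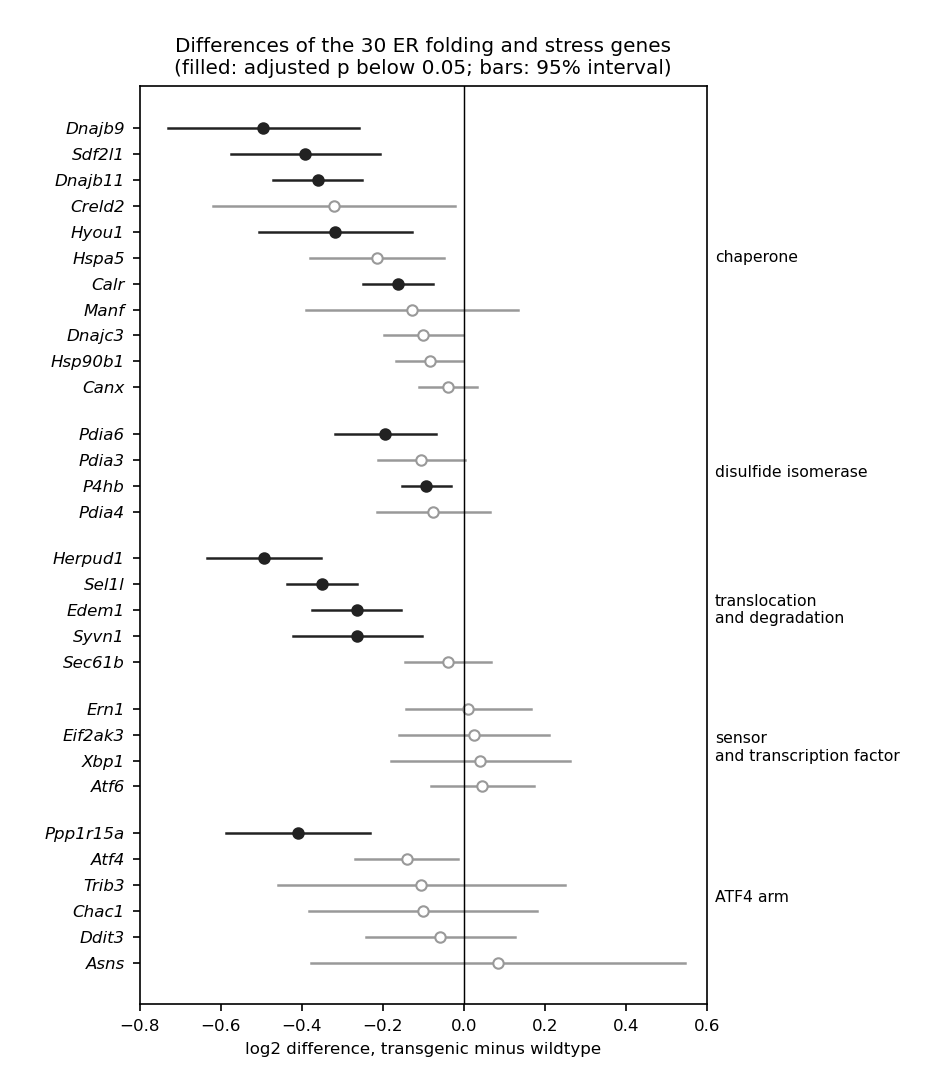
Log2 difference, transgenic minus wildtype, of each of the 30 members with its 95% confidence interval from limma (7 against 9 arrays), grouped by role, with filled points for an adjusted p below 0.05. The filled points all lie below 0, from −0.49 to −0.09, and the sensors and Xbp1 sit near 0.

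Members that help proteins fold in the ER lumen made up the largest role, and 5 of 11 chaperone and cochaperone genes were lower in transgenic livers. Dnajb9, a cochaperone of BiP that also restrains IRE1, had 8.51, 8.90 and 9.09 as its lowest, median and highest log2 level in transgenic arrays, against 8.92, 9.29 and 9.74 in wildtype arrays. All 7 transgenic arrays lay below the wildtype mean, and the ranges overlapped through 1 wildtype array, number 8. The difference was −0.49 ± 0.112 (SE, n = 7 against 9; adjusted p = 0.00373), or 29.0% lower.

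Dnajb11, another BiP cochaperone, whose promoter is shown above, had 8.60, 8.83 and 8.91 in transgenic arrays and 9.03, 9.18 and 9.26 in wildtype arrays. Every transgenic array lay below every wildtype array, a separation that 3.65% of all genes had in this direction and 5.43% in the other. The difference was −0.36 ± 0.052 (adjusted p = 5.69e-05), or 22.1% lower. Sdf2l1, which forms a complex with the Dnajb11 protein, had 8.23, 8.51 and 8.80 in transgenic arrays and 8.69, 8.88 and 9.27 in wildtype arrays. The overlap was small, with 5 of 7 transgenic arrays below all wildtype arrays, and the difference was −0.39 ± 0.0872 (adjusted p = 0.00337), or 23.7% lower.

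Hyou1, a nucleotide exchange factor for BiP, had 8.65, 8.92 and 9.19 in transgenic arrays and 9.02, 9.27 and 9.56 in wildtype arrays. It was lower by 0.32 ± 0.0898 on the log2 scale (adjusted p = 0.0177), or 19.7%, and this call was lost with quantile normalization (adjusted p = 0.0546). Calr, a lectin chaperone of glycoproteins that also stores calcium, had 11.46, 11.56 and 11.61 in transgenic arrays and 11.57, 11.71 and 11.89 in wildtype arrays. All transgenic arrays lay below the wildtype mean and the difference was −0.16 ± 0.0414 (adjusted p = 0.00902), or 10.6% lower.

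Hspa5, which encodes BiP, did not pass the test. Its levels were 11.40, 11.59 and 11.84 in transgenic arrays and 11.52, 11.89 and 12.02 in wildtype arrays, and the groups overlapped. The difference was −0.21 ± 0.0788 (95% interval −0.38 to −0.05; adjusted p = 0.0682). Its adjusted p passed the threshold when transgenic array 2, wildtype array 8 or wildtype array 9 was left out (0.0218 to 0.0350), and with quantile normalization (0.0470) or with each array centred on its median (0.0200).

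Hsp90b1, the ER form of HSP90, differed by −0.08 ± 0.0394 and missed the threshold (adjusted p = 0.163), although it passed with quantile normalization (0.0375). Creld2, a stress-induced ER protein, had 7.64, 8.29 and 8.46 in transgenic arrays and 8.01, 8.56 and 8.77 in wildtype arrays, with a difference of −0.32 ± 0.142 and an adjusted p of 0.136. Its fitted difference was as large as that of Hyou1, and its spread between arrays was larger. Dnajc3, a cochaperone of BiP, differed by −0.10 (95% interval −0.20 to −0.003), and Manf, a secreted ER stress protein, by −0.13 (−0.39 to 0.13). Canx, the membrane-bound relative of Calr, differed by −0.04 (−0.11 to 0.03).

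Disulfide isomerases form and rearrange the disulfide bonds of secreted proteins, and 2 of the 4 genes were lower. Pdia6 had 11.02, 11.16 and 11.37 in transgenic arrays and 11.25, 11.37 and 11.64 in wildtype arrays. All 7 transgenic arrays lay below the wildtype mean, and the difference was −0.19 ± 0.0595 (adjusted p = 0.0283), or 12.6% lower. The call was lost without transgenic array 1, 3, 4 or 6 or without wildtype array 5 (adjusted p 0.0531 to 0.0610). P4hb, which encodes the founding member of the family and a subunit of prolyl 4-hydroxylase, had 11.70, 11.79 and 11.84 in transgenic arrays and 11.77, 11.87 and 11.94 in wildtype arrays. Its difference was −0.09 ± 0.0291 (adjusted p = 0.0333), or 6.18% lower. The call was lost without transgenic array 2, 5 or 6 or without wildtype array 1, 2, 3, 5, 8 or 9 (adjusted p 0.0507 to 0.0747).

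Pdia3, which works on glycoproteins bound to Calr and Canx, had 10.77, 10.90 and 10.93 in transgenic arrays and 10.88, 10.93 and 11.31 in wildtype arrays. The highest wildtype value came from array 9, and the other wildtype arrays reached at most 11.002. The difference was −0.10 ± 0.0513 (95% interval −0.21 to 0.004; adjusted p = 0.183). Pdia4 differed by −0.08 (−0.21 to 0.06), and its second row by −0.17 ± 0.132, and neither row passed.

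All 4 members of ER-associated degradation were called lower, against 11.1% of all genes. Within the range of mean levels spanned by the ATF6/XBP1-type members, 30.4% of genes were called lower. Of 19 other degradation genes, given further on, 6 were (31.6%). Herpud1 encodes a membrane protein that assembles the degradation complex. It had 11.67, 11.79 and 12.14 in transgenic arrays and 12.18, 12.32 and 12.50 in wildtype arrays. No transgenic array reached any wildtype array, and the difference was −0.49 ± 0.067 (adjusted p = 3.04e-05), or 29.0% lower.

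Sel1l, the adaptor of the HRD1 ubiquitin ligase, had 8.95, 9.02 and 9.17 in transgenic arrays and 9.27, 9.37 and 9.49 in wildtype arrays. Here too the groups did not overlap. The difference was −0.35 ± 0.0411, or 21.5% lower, with the lowest adjusted p among the 30 members (6.09e-06).

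Syvn1, which encodes the HRD1 ligase, had 7.17, 7.41 and 7.74 in transgenic arrays and 7.53, 7.73 and 7.90 in wildtype arrays. It overlapped between the groups, with a difference of −0.26 ± 0.0759 (adjusted p = 0.0200), or 16.6% lower. Edem1, a lectin that extracts mannose-trimmed glycoproteins for degradation, had 9.35, 9.42 and 9.67 in transgenic arrays and 9.58, 9.73 and 9.81 in wildtype arrays. In 6 of 7 transgenic arrays it lay below all wildtype arrays, and the difference was −0.26 ± 0.0521 (adjusted p = 0.00123), or 16.7% lower. Sec61b, a subunit of the channel through which proteins enter the ER, differed by −0.04 (95% interval −0.15 to 0.07; adjusted p = 0.657), and its other rows, both at −0.08, were not called either.

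**Figure D2:**
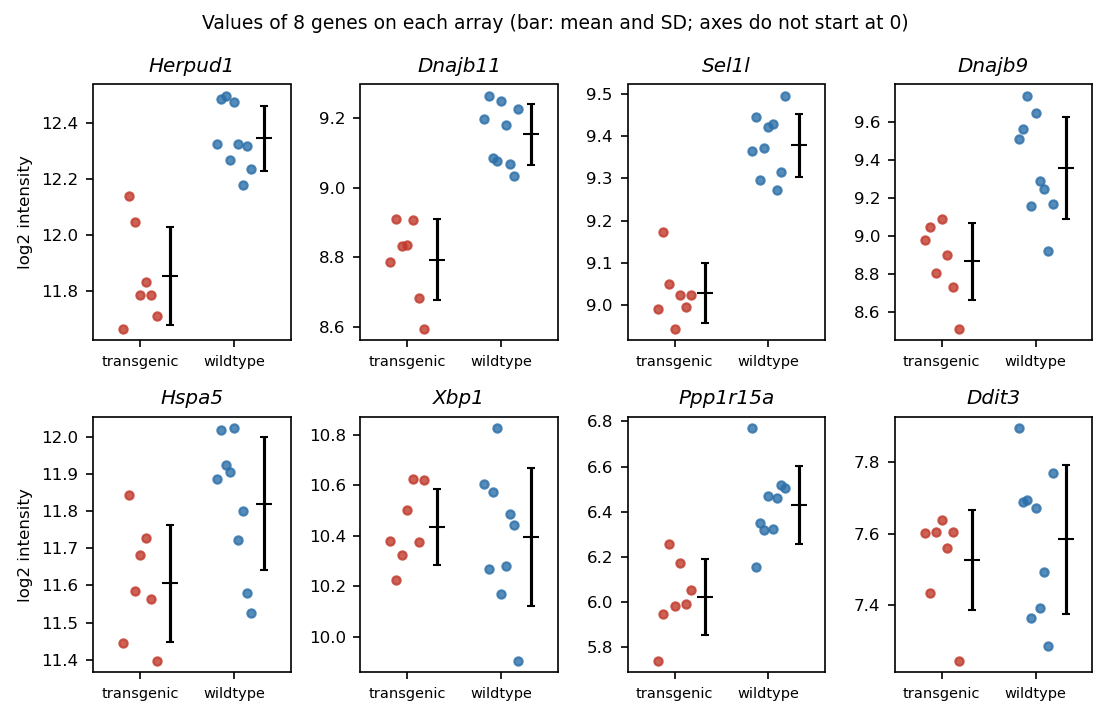
Log2 intensity of 8 members in each of the 7 transgenic (left, red) and 9 wildtype (right, blue) arrays, 1 point per array, with the mean and SD of each group as a bar beside the points and axes that do not start at 0. Herpud1, Dnajb11 and Sel1l separate the groups without overlap, whereas Dnajb9, Hspa5, Xbp1, Ppp1r15a and Ddit3 overlap.

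The 3 sensors and the factor Xbp1 did not pass the test, and their fitted differences lay between 0.01 and 0.05. Atf6 differed by 0.05 (95% interval −0.08 to 0.17), Ern1 by 0.01 (−0.14 to 0.17) and Eif2ak3 by 0.03 (−0.16 to 0.21), with adjusted p-values of 0.670, 0.940 and 0.885. Xbp1 had 10.23, 10.38 and 10.62 in transgenic arrays and 9.90, 10.44 and 10.83 in wildtype arrays. The transgenic values lay inside the wildtype range, and the difference was 0.04 ± 0.105 (95% interval −0.18 to 0.26; adjusted p = 0.839). A row of the array sums over the spliced and unspliced forms of Xbp1, and neither splicing nor ATF6 cleavage nor eIF2 phosphorylation was measured. At an unadjusted p of 0.05, 0 of these 4 genes passed in either direction.

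In the ATF4 arm 1 of 6 genes passed. Ppp1r15a, whose product directs the phosphatase that removes phosphate from eIF2, had 5.74, 5.99 and 6.26 in transgenic arrays and 6.16, 6.46 and 6.77 in wildtype arrays. Of the transgenic arrays, 5 of 7 lay below all wildtype arrays, and the difference was −0.41 ± 0.0845 (adjusted p = 0.00185), or 24.6% lower.

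Atf4, the transcription factor of this arm, had 8.44, 8.66 and 8.75 in transgenic arrays and 8.58, 8.81 and 8.91 in wildtype arrays. All transgenic arrays lay below the wildtype mean, but the groups overlapped and the difference of −0.14 ± 0.0603 did not pass (adjusted p = 0.122). With each array centred on its median it passed (adjusted p = 0.0467). ATF4 is regulated mainly in translation, which an mRNA level does not show.

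Ddit3, the stress factor CHOP, had 7.25, 7.60 and 7.64 in transgenic arrays and 7.29, 7.67 and 7.90 in wildtype arrays, a difference of −0.06 (95% interval −0.24 to 0.13). Trib3, a pseudokinase induced by ATF4 and CHOP, had 6.10, 6.46 and 7.38 in transgenic arrays and 6.40, 6.49 and 7.33 in wildtype arrays. A single transgenic array, number 7, stood high. Wildtype arrays 9, 6, 7 and 8, at 7.33, 7.09, 6.96 and 6.65, lay above wildtype arrays 1 to 5, which reached at most 6.49. The difference was −0.10 (−0.46 to 0.25).

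Asns, asparagine synthetase, had 6.03, 6.34 and 6.92 in transgenic arrays and 5.42, 6.32 and 6.98 in wildtype arrays, with a difference of 0.08 (95% interval −0.38 to 0.55). The wildtype SD of 0.58 was the largest of any member in either group. Chac1, which degrades glutathione, had 6.15, 6.57 and 6.73 in transgenic arrays and 5.88, 6.57 and 7.04 in wildtype arrays, with a difference of −0.10 (−0.38 to 0.18).

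Set side by side, 11 of 21 ATF6/XBP1-type members (52.4%) were lower and 0 higher, with a median difference of −0.19, and 1 of 6 ATF4-type members was lower and 0 higher, with a median of −0.10. At an unadjusted p of 0.05 the numbers lower were 15 of 21 and 2 of 6, and none was higher. The 3 sensors had a median of 0.03. The rows of the ATF6/XBP1-type members had mean log2 levels from 7.61 to 12.1, and 30.4% of the 4399 genes in that range were lower and 12% higher, with a median of −0.08. In the range of the ATF4-type members, 6.25 to 8.70, 16.3% of 5977 genes were lower and 16% higher, with a median of −0.02. With quantile normalization the median was −0.17 for the ATF6/XBP1-type and −0.15 for the ATF4-type. The median over all genes was −0.04. With each array centred on its median, 13 of the 21 and 2 of the 6 were lower. Without transgenic array 1 and wildtype array 9 together, which stood apart from the other arrays in several members, 11 of the 21 and 1 of the 6 were lower. The difference between the types was not tested, since the members had been chosen with results known.

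The mean deviation of the ATF6/XBP1-type members from their wildtype means was −0.33, −0.18 and −0.15 as the lowest, median and highest transgenic array and −0.10, 0.01 and 0.08 in wildtype arrays. The groups did not overlap on this mean. For the ATF4-type members it was −0.37, −0.03 and 0.00 in transgenic arrays and −0.16, 0.01 and 0.25 in wildtype arrays, and the groups overlapped. The sensors ranged from −0.07 to 0.10 in transgenic arrays and from −0.16 to 0.15 in wildtype arrays. These means cover 21, 6 and 3 genes, with SDs of 0.07, 0.14 and 0.08 between wildtype arrays. Separation in the first type and overlap in the others are therefore not a like comparison. Means over other genes were not taken.

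**Figure D3:**
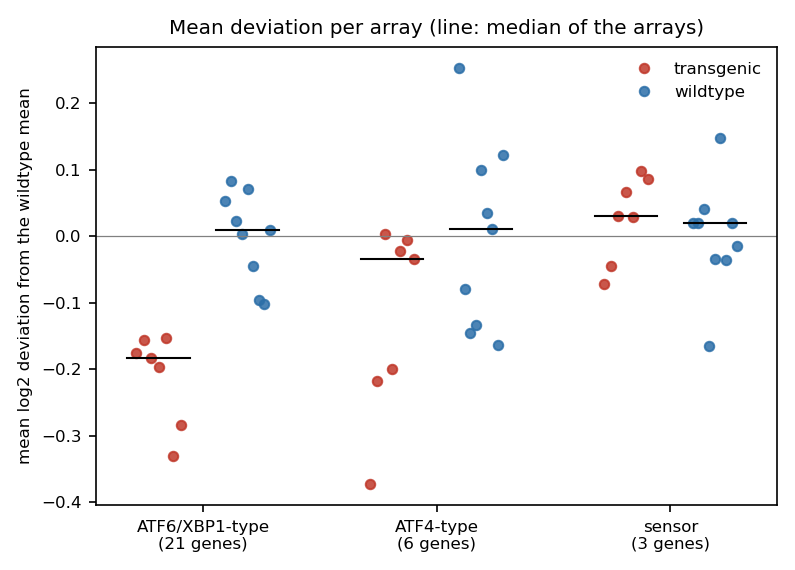
Mean log2 deviation from the wildtype mean, over the members of each type, for each of the 7 transgenic (left) and 9 wildtype (right) arrays, with a line at the median of the arrays. The transgenic arrays of the ATF6/XBP1-type lie between −0.33 and −0.15, below all wildtype arrays, while the groups overlap for the ATF4-type and the sensors. The means cover 21, 6 and 3 genes, so their spread between arrays is not alike.

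The arrays did not move together in every member. Transgenic arrays 6 and 7 had the lowest ATF6/XBP1-type means, −0.33 and −0.28, and were the lowest of all 16 arrays in Hyou1, Creld2 and Dnajb9. Among wildtype arrays, numbers 6, 7 and 8 had the lowest means, −0.05, −0.10 and −0.10. In Creld2, transgenic arrays 5 to 7 (7.64 to 7.99) lay below transgenic arrays 1 to 4 (8.29 to 8.46). Wildtype arrays 6 to 9 (8.01 to 8.25) likewise lay below wildtype arrays 1 to 5 (8.56 to 8.77). A relation to sample number was not tested. Transgenic array 1 had the lowest ATF4-type mean and the lowest Ppp1r15a level, 5.74. Wildtype array 9 was the highest array in Pdia3, Pdia4, Pdia6, P4hb and Calr and the lowest in Xbp1 and, among wildtype arrays, in Hspa5. Its mean over the ATF6/XBP1-type members, 0.01, was the wildtype median.

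**Figure D4:**
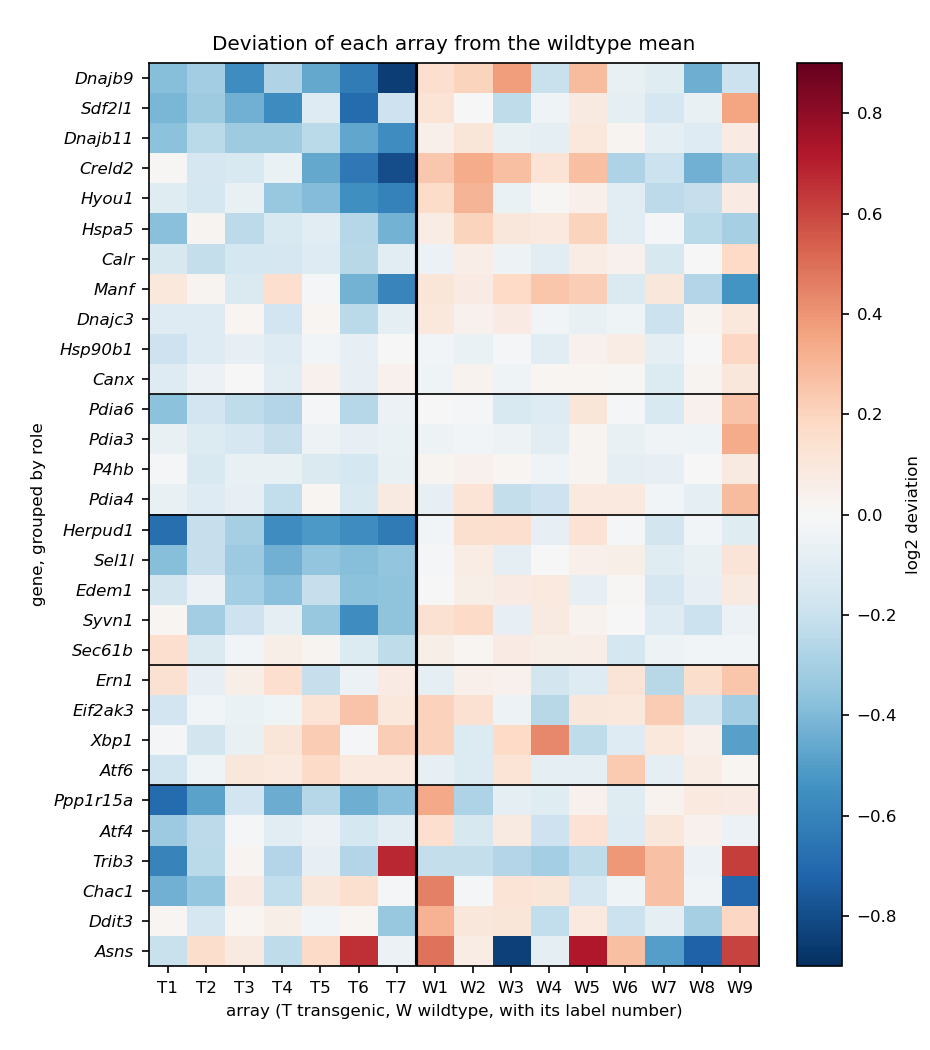
Deviation of each member (down) in each array (across, transgenic left and wildtype right) from the member's wildtype mean, in log2 units by colour. The transgenic columns are mostly below 0 for chaperone and degradation genes, with arrays 6 and 7 the lowest on the ATF6/XBP1-type mean.

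Relations between pairs of members were read within each group. Of 12 relations, 6 pairs of genes in each of the groups, none passed after Benjamini-Hochberg adjustment, and the lowest adjusted p was 0.611 for Pearson's r and 0.8 for Spearman's rho (exact permutation tests over pairings, two-sided). The largest was between Ddit3 and Trib3 in the 7 transgenic arrays (r = −0.784, exact p = 0.0696; rho = −0.571, exact p = 0.200). Without the 2 arrays farthest from the median of Ddit3, r was −0.252 over 5 arrays. Asns and Chac1 had r = 0.627 in the 7 transgenic arrays (exact p = 0.118; rho = 0.714, exact p = 0.0881) and r = −0.371 in the 9 wildtype arrays (exact p = 0.347; rho = −0.500, exact p = 0.178). Hspa5 and Hyou1 had r = 0.289 in transgenic arrays (exact p = 0.510) and 0.474 in wildtype arrays (exact p = 0.198).

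Members with and without a promoter match were then counted among those that were lower. Of the 10 ATF6/XBP1-type members with an ERSE or ERSE-II match, 5 were lower, with a median difference of −0.20. Of the 9 with a promoter in the table and neither match, 5 were lower as well, with a median of −0.10. Dnajb9, Sdf2l1, Edem1, Sel1l and P4hb were lower without a match, and Hspa5, Hsp90b1, Canx, Dnajc3 and Creld2 held an ERSE match and did not pass. Among measured genes that are no member, 13 held an ERSE match, of which Derl3 and Ero1b were lower and Acacb, Adcy3 and Spats2l were higher. These 5 genes were named after their values were seen. Of 561 other measured genes with an ATF4 composite site, 9.63% were lower and 10.5% higher, against 11.6% and 12.1% of all 15614 measured genes with a promoter in the table.

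Related genes from lists of the same pathways were read next. Over all genes, 11.1% were lower and 12.1% higher. Among genes with mean levels from 7.61 to 12.1, 30.4% were lower and 12% higher, and the lists were not matched for level. Among 27 other ER chaperones and folding enzymes, 13 were lower (48.1%) and 4 higher (14.8%), with a median of −0.14. Ero1b, an oxidase that recharges disulfide isomerases, was lower by 0.52 ± 0.0827 on the log2 scale (adjusted p = 1.60e-04). Fkbp7, an ER prolyl isomerase, was 2.34-fold higher (log2 difference 1.23 ± 0.0744, adjusted p = 1.30e-09), and Uggt2, a relative of the glucosyltransferase that tags unfolded glycoproteins, was higher by 0.43 (adjusted p = 0.00214).

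Among 19 other degradation genes, 6 were lower and 0 higher (8 and 0 at an unadjusted p of 0.05), with a median of −0.08. Derl3, a channel-forming protein that is strongly induced by ER stress, differed by −0.61 ± 0.161 (adjusted p = 0.0106). Os9, a lectin that hands misfolded glycoproteins to the Sel1l complex, differed by −0.34 ± 0.0459 (adjusted p = 2.87e-05), and Faf2, which recruits the ATPase that pulls proteins out of the membrane, by −0.26 (adjusted p = 0.00438).

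Of 27 genes of the translocon, signal peptidase and oligosaccharyltransferase, 9 were lower (33.3%) and 2 higher (7.41%). Srp68, of the signal recognition particle, differed by −0.27, and the oligosaccharyltransferase subunits Magt1 and Tusc3 were called in opposite directions, at −0.22 (adjusted p = 0.00832) and 0.26 (adjusted p = 0.0313). Of 17 COPII coat and ER-anchored CREB3-family genes, 4 were lower (23.5%) and 1 higher (5.88%). Creb3l3, an ER-anchored transcription factor of hepatocytes that is cleaved like ATF6, was 41.6% lower in transgenic livers (log2 difference −0.78 ± 0.0463, adjusted p = 1.12e-09), and its groups did not overlap. The COPII genes Sec24d (−0.32), Sec23a (−0.31) and Sar1b (−0.31) were lower and Sar1a (0.14) was higher.

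Among 24 other ATF4 and amino acid response genes, 4 were higher (16.7%) and 4 lower (16.7%), with a median of −0.10. Nupr1, a stress-induced nuclear protein, was higher by 0.77 ± 0.0971 (adjusted p = 1.25e-05), whereas Slc3a2, a subunit of amino acid transporters, differed by −0.52 ± 0.0765 (adjusted p = 6.64e-05) and Shmt2, of mitochondrial serine metabolism, by −0.41 ± 0.0498 (adjusted p = 9.14e-06). Of 12 genes for eIF2, its kinases, its exchange factor and its phosphatase subunits, 8 were lower (66.7%) and 0 higher. At an unadjusted p of 0.05, 8 were lower and 1 higher, and the median was −0.21. The largest were the exchange factor subunits Eif2b1 (−0.36 ± 0.0672, adjusted p = 7.62e-04) and Eif2b4 (−0.28) and the kinase Eif2ak1 (−0.26).

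Of 9 collagen-folding ER proteins, 4 were higher (44.4%) and 1 lower (11.1%), with a median of −0.01. Plod2, a lysyl hydroxylase of collagen, was 3.30-fold higher (log2 difference 1.72 ± 0.118, adjusted p = 7.05e-09), Serpinh1, the collagen chaperone, 2.03-fold (1.02 ± 0.0706, adjusted p = 8.07e-09) and Crtap, of the prolyl 3-hydroxylation complex, 2.01-fold (1.01 ± 0.0671, adjusted p = 4.75e-09). P4ha1, the catalytic subunit that partners with P4hb, was higher by 0.31 ± 0.0956 (adjusted p = 0.0315) while P4hb was lower, and Plod1 differed by −0.18 (adjusted p = 0.0349). Of 17 chaperones of the cytosol and mitochondria, 5 were lower (29.4%) and 1 higher (5.88%), with a median of −0.13. Lonp1 and Trap1, of mitochondria, differed by −0.34 (adjusted p = 1.06e-04) and −0.32 (adjusted p = 0.00106), and Hspb1, of the cytosol, by 0.61 (adjusted p = 2.11e-04).

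**Figure D5:**
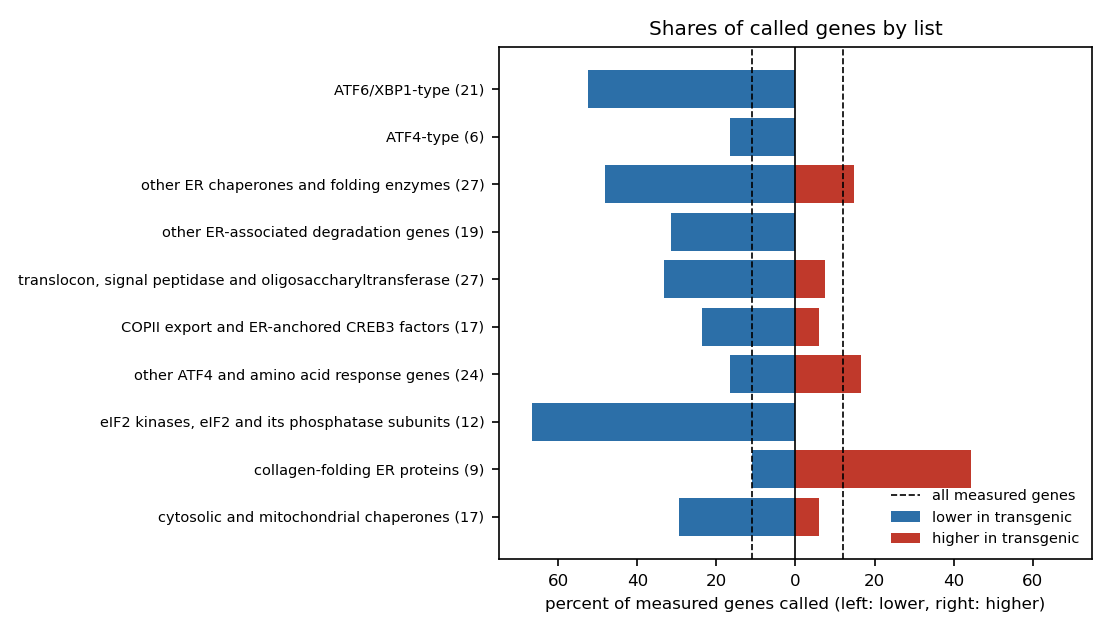
Percent of the measured genes of each list that were called lower (bars to the left) or higher (bars to the right) in transgenic livers at an adjusted p of 0.05 (limma), with the number measured in brackets and dashed lines at 11.1% lower and 12.1% higher, the shares of all genes. The bar for lower reaches 52.4% of the ATF6/XBP1-type members and 66.7% of the eIF2 list. The bar for higher reaches 44.4% of the collagen-folding list. Not drawn is the share among genes with mean levels from 7.61 to 12.1, of which 30.4% were lower and 12% higher.

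In RNA of whole liver, fewer cells of a type and less RNA per cell cannot be told apart. All 12 fibroblast and stellate cell markers were higher in transgenic livers, and their summed level ran from 12.7 to 13.0 in transgenic arrays and from 10.6 to 11.3 in wildtype arrays on the log2 scale. The summed level of 8 hepatocyte markers ran from 16.17 to 16.25 in transgenic arrays and from 16.20 to 16.28 in wildtype arrays, with 1 marker higher and 2 lower. Alb differed by −0.02 (adjusted p = 0.726), Ttr, the thyroxine carrier, by −0.11 (adjusted p = 0.00228) and Otc, of the urea cycle, by −0.51 (29.6% lower, adjusted p = 5.50e-07), without overlap of the groups for Otc. The level of Otc adds little to the sum, and these 3 markers were picked once their values had been seen. Of the 8 markers, 6 had a fitted difference below 0 and 2 above 0. The 2 were Apoa1 at 0.07 (adjusted p = 0.0292), the marker called higher, and Cps1 at 0.03, which was not called. The 11 markers of plasma and B cells, which also carry a large ER, summed to 10.0 to 10.3 in transgenic arrays and 10.2 to 10.4 in wildtype arrays, with 4 higher and 1 lower. The lower one, Sdc1, which hepatocytes also express, carried most of that sum, and the other 10 summed to 8.25 to 8.37 in transgenic arrays and 7.94 to 8.11 in wildtype arrays, a sum added after the data were seen. Jchain was the plasma and B cell marker with the largest rise, 2.14-fold (adjusted p = 6.30e-05). Its mean levels, 5.04 in transgenic and 3.94 in wildtype arrays, lay below the median of all values, 5.26. Of the 11 markers 6 were not called, among them the plasma cell genes Mzb1, Prdm1, Irf4, Tnfrsf17 and Pou2af1. The 12 macrophage markers summed to 10.8 to 11.5 in transgenic arrays and 10.9 to 11.9 in wildtype arrays, with 5 higher and 6 lower. This sum hides large differences both ways. Clec4f, Vsig4, Timd4, Marco, Cd5l and Cd163 were lower, with log2 differences from −2.83 to −0.67. Cd68, Lyz2, Csf1r, Cx3cr1 and Ccr2 were higher, with differences from 0.38 to 2.20. The 6 endothelial markers summed to 9.28 to 9.76 in transgenic arrays and 10.5 to 10.9 in wildtype arrays, with 2 higher and 3 lower. Clec4g, the brightest of the 6 in wildtype arrays (mean 9.83), weighed most in that sum and differed by −2.27. Kdr (−1.01) and Stab2 (−0.56) were lower too, whereas Emcn (1.23) and Pecam1 (0.35) were higher and Cdh5 (−0.06) was not called. The sum therefore does not describe the endothelial markers as a set. On this scale no marker has a level of 0. The part of these cell types in the differences of the members was not tested.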

How the data were processed

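The deposited table held log2 values, 1 per row and array, for 16 mouse liver samples. The authors made them with GCRMA, per the submitters' processing notes. GCRMA estimates background from the bases of each probe, equalises the arrays and combines the probes of a row. Its version is not given in the sources used here, and the log base was read from the range of the values, 0.71 to 14.7. Because low values are drawn towards a floor, differences of dim genes are less certain. Scanner files, detection calls and batches were not analysed here.

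Groups came from the sample titles. Of 35557 rows, 21789 had 1 symbol in the probe annotation, 1621 had several and 12147 were not listed. The 19938 genes were each represented by their brightest row on average across the 16 arrays, and all 30 members matched the GRCm38.p6 gene table by Entrez identifier. Transgenic and wildtype arrays were compared in R 4.3.3 by limma 3.58.1, using lmFit and eBayes with trend on, in two-sided tests with 14 residual degrees of freedom, over all rows without a filter, with Benjamini-Hochberg adjustment and a threshold of 0.05.

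Named genes were all members, Pdgfc and, of each pathway list, up to 3 called genes by size, or all where 5 or fewer were called. The members and lists were chosen with earlier results of these data known, and lists are described by counts and medians without a test. The promoter search and the percentages within a level range were added after the data were seen. Each range runs from the dimmest to the brightest member of a type, and genes in it were not matched to single members by level. Alternatives were quantile normalization, centring, filters on rows, other eBayes settings, array weights, the mean over a gene's rows, a replicate block and leaving out arrays.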

Additional observations from a re-analysis of the deposited data

Results flagged for a closer look

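In Pdia3, wildtype array 9 stood at 11.31 on the log2 scale, far above the other wildtype arrays, which lay between 10.878 and 11.002. This gap was over Dixon's 95% critical value for 9 samples. Of 60 sets of values tested, 30 members in each of the groups, this was the 1 that passed, where chance would give about 3. Without this array Pdia3 did not pass the test either.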

How the results depend on the processing

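Each member was fitted under 26 alternatives, 16 of which left out an array. Of the 12 members lower in transgenic livers, Dnajb9, Dnajb11, Sdf2l1, Herpud1, Edem1, Sel1l, Syvn1 and Ppp1r15a stayed below the threshold in all 26, and none of the 12 changed sign. The number of ATF6/XBP1-type members called lower ran from 9 to 12 when an array was left out, was 13 with arrays centred on their medians and 9 without a trend, and 0 were higher throughout. Their median ran from −0.22 to −0.17 when an array was left out, and that of the ATF4-type members from −0.13 to −0.06. The ATF4-type count was 2 with arrays centred and 1 otherwise. Calr was lost with the replicate block (adjusted p = 0.0698). Pdia6 was also lost with quantile normalization, without a trend, with the replicate block and without transgenic array 1 and wildtype array 9 together, and P4hb without a trend and with the block. Hspa5 was also called among brighter rows, among rows with 1 symbol, with the block and without those arrays together. Dnajc3 was called with arrays centred (adjusted p = 0.0363) and without wildtype array 7 (0.0478). Over all rows, the deviations of same-numbered arrays were hardly correlated (r from −0.0186 to 0.0859). A value over all rows cannot show whether single members deviate together. A fit with the replicate block called 10 of 21 ATF6/XBP1-type and 1 of 6 ATF4-type members lower, with medians of −0.24 and −0.11, and called Creld2 (adjusted p = 0.00305).

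Signs changed in 7 members that did not pass, and the cause was not tested. With quantile normalization Canx was at 0.0255 and Eif2ak3 at −0.0419. With arrays centred, where the median row was at −0.08 against −0.03 as deposited, Xbp1 was at −0.00931, Atf6 at −0.00431, Ern1 at −0.0389 and Eif2ak3 at −0.0249. Centring gave 2873 rows higher and 4688 lower, against 3785 and 2936 in the values as deposited. With the replicate block Xbp1 was at −0.0222 and Eif2ak3 at −0.0434. Without transgenic array 1 and wildtype array 9 together Xbp1 was at −0.0106 and Trib3 at 0.0559. When an array was left out, Ern1 ran from −0.0194 to 0.0480, Eif2ak3 from −0.0139 to 0.0590, Asns from −0.0211 to 0.174 and Xbp1 from −0.0201 to 0.0949. The number of arrays limits which small differences can be called.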
